A study of Mus musculus with 48 samples.

Results

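The genes of the proteasome were followed in kidney RNA of mice that received D-alanine or vehicle. Members were the protein-coding genes in the deposited expression tables whose symbol starts with Psm, then a letter from a to g and a number. This rule found 50 of 49585 genes. One of the 50, Psmc3ip, shares the name pattern only and encodes a meiotic recombination factor. The members were sorted by role into the core particle (20S), the regulatory particle (19S), activators, an inhibitor and assembly chaperones.

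The proteasome is the complex that degrades proteins tagged with ubiquitin chains. Its barrel-shaped core is built from outer rings of α subunits and inner rings of β subunits, some of which carry the proteolytic sites, and the regulatory particle on its end binds the ubiquitin chain, removes it and unfolds the substrate with a ring of ATPases. Immune cells, and other cells under interferon, build a core with replacement catalytic subunits, the immunoproteasome, which favours peptides for antigen presentation. In many cells the subunit genes are induced together by the transcription factor NRF1, encoded by Nfe2l1.

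The series holds 48 libraries from mouse kidney labelled WT, in 12 groups of 4. Each group received vehicle or D-alanine and was taken at CT0, CT4, CT8, CT12, CT16 or CT20 (CT, circadian time in hours). D-alanine is the enantiomer of the common amino acid L-alanine, and neither dose nor route of dosing is given in the sources used here. The series text speaks of kidneys from separate mice and of an experiment done 2 times, and 2 tables were deposited, each holding 24 libraries and so 2 from every group. The labels do not tie single libraries to animals, so p-values measure the spread between libraries, which may be technical. The kidney markers matched the label, with all 6 proximal tubule markers measured and Slc34a1, a tubular phosphate transporter, at 1925 FPKM. Of the markers of proximal tubule, thick ascending limb, distal tubule, collecting duct, podocytes, endothelium, leukocytes, red cells and fat, 0 were called for treatment; an unadjusted p under 0.05 was found in 3 of 3 endothelial and 3 of 3 measured fat markers. FPKM is the number of fragments scaled to gene length and library total. Depth recovered from the smallest steps of the values was 7.63e+06 to 1.44e+07 fragments per library. In the first table mitochondrially encoded genes took 41.4% ± 3.4 of summed FPKM with vehicle and 37.4% ± 4.3 with D-alanine. In the second they took 19.9% ± 2.0 and 17.0% ± 1.4 (SD, n = 12 each). In whole kidney, fewer cells of a type and less RNA per cell cannot be told apart.

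Of the 50 members, 48 passed a filter of at least 1 FPKM in at least 4 libraries, and all 48 reached 1 FPKM in every library. The other 2 are tissue-restricted. Psma8, the α subunit of the testis proteasome, had a mean of 0.088 FPKM, and Psmb11, the catalytic subunit of the thymus, a mean of 0.0077 FPKM. In the first table all members together took 0.293% ± 0.023 of summed FPKM with vehicle and 0.317% ± 0.024 with D-alanine. In the second they took 0.424% ± 0.014 and 0.449% ± 0.015 (SD, n = 12 each). Without the mitochondrially encoded genes in the total, the 4 shares were 0.50%, 0.506%, 0.530% and 0.541%.

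Levels are given by role. The constitutive catalytic subunits had a median of 89.1 FPKM, the structural β subunits 71.3, the ATPases 59.5, the α subunits 38.7, the remaining base subunits 37.9, the lid subunits 27.5, the activators 20.5 and the immunoproteasome subunits 6.12. Psmb5, which carries the chymotrypsin-like site, was the highest member at 151 FPKM, followed by Psmb1 at 122. Psmb5 exceeded Psmb1 in 48 of 48 libraries. No other pair of neighbours in the order of levels was ordered the same way in all 48 libraries, apart from the step from Psmb9 down to Psma8, so most adjacent ranks changed places between libraries. At the lower end were the base scaffold subunit Psmd1 (6.42), Psmb8 (6.12), the base chaperone Psmd5 (5.99) and the inhibitor Psmf1 (4.52). Below them came the base chaperone Psmd9 (3.76), the core assembly chaperone Psmg3 (3.0), Psmc3ip (1.99) and Psmb9 (1.98). These values are per summed exon length, which ranged from 555 bases in Psmg4 to 8382 in Psme4, so a gene with long rarely used exons reads low.

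**Figure D1:**
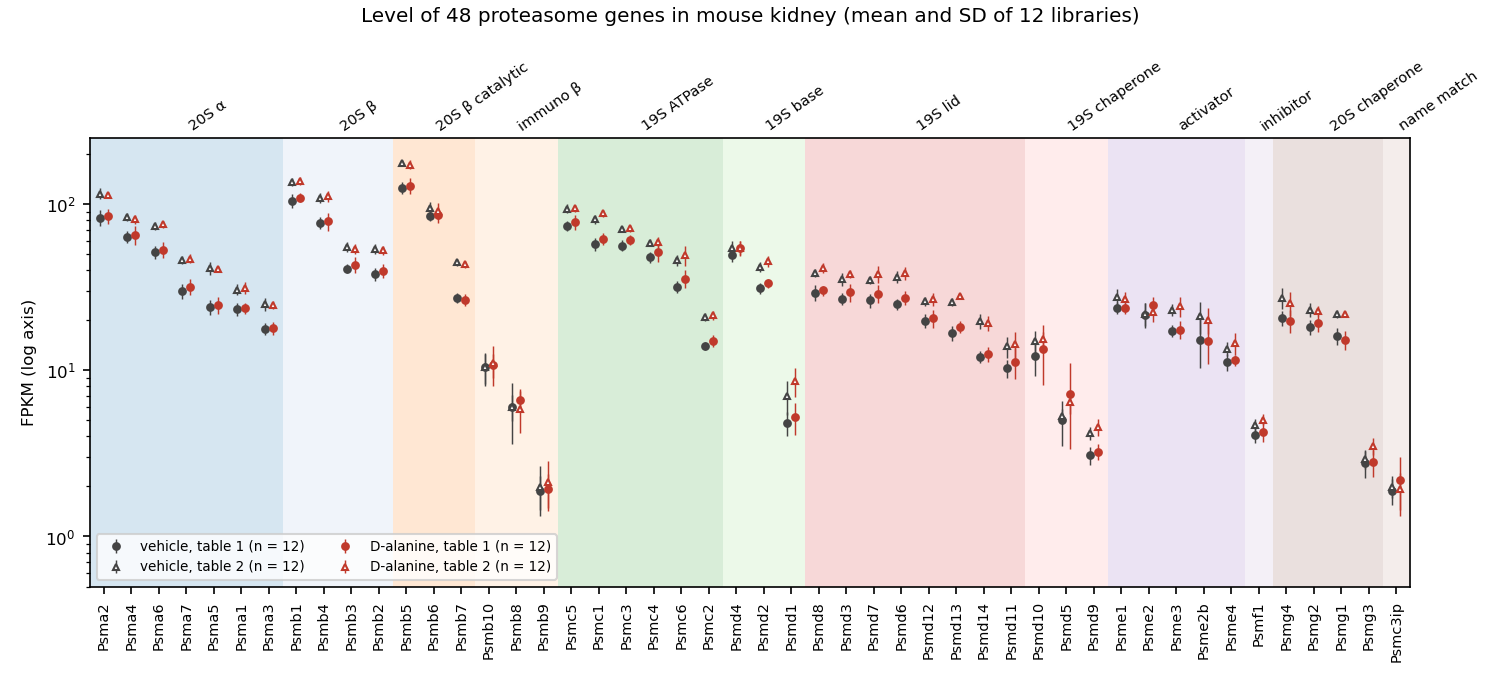
Mean FPKM on a log axis for each of the 48 measured members, grouped by role; points are means of 12 libraries per treatment and table and bars are SD. Psmb5 is highest at 151 FPKM and the immunoproteasome subunits lie between 1.98 and 10.7 FPKM, well below the catalytic subunits they replace.

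The immunoproteasome subunits were compared with the catalytic subunits they replace. In the first table Psmb5 ranged from 109 to 145 FPKM with vehicle and from 112 to 156 with D-alanine, while Psmb8, its replacement, ranged from 4.01 to 8.18 and from 5.05 to 8.12. Psmb8 was 4.18% ± 1.29 of Psmb5 (SD, n = 48 libraries, range 1.96% to 7.16%). Psmb9, the replacement of the caspase-like subunit Psmb6, was 2.22% ± 0.54 of it. On the FPKM scale Psmb10 was the exception in proportion, at 32.1% ± 10.7 of Psmb7, the trypsin-like subunit. This last share was 39.6% ± 8.3 in the first table and 24.6% ± 6.7 in the second. Psmb7 was higher in the second table (27.0 against 44.0 FPKM) and Psmb10 was not (10.6 against 10.7 FPKM). The shares depend on summed exon length, which was 3381 bases in Psmb8 and 899 in Psmb5, but 1705 in Psmb10 and 3421 in Psmb7. Median recovered fragments were 229 for Psmb8 and 1623 for Psmb5, 203 for Psmb10 and 1467 for Psmb7, and 80 for Psmb9 and 1910 for Psmb6. In fragments Psmb10 was thus no exception beside Psmb8.

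None of the immunoproteasome subunits passed any test of treatment or time. After removal of group and table means, Psmb8, Psmb9 and Psmb10 nevertheless moved together from library to library. Pearson's r was 0.83 for Psmb8 with Psmb10, 0.70 for Psmb8 with Psmb9 and 0.65 for Psmb9 with Psmb10, over 48 libraries that share their depth and composition. The 91 pairs of constitutive core subunits had a median r of 0.32, the 136 pairs of regulatory particle subunits 0.21, and all pairs of genes 0.04. With the activator subunits Psme1 and Psme2, which form the interferon-inducible cap, the median r was 0.63, against 0.16 with the constitutive core subunits. The summed level of 11 leukocyte markers followed the same subunits, with r of 0.91 for Psmb8, 0.85 for Psmb10 and 0.75 for Psmb9. Most of that sum was Cd74, an antigen presentation gene, with a mean of 157 of 221 FPKM; Ptprc, Adgre1, Cd3e and Cd79a were each under 1 FPKM on average. Over the other 10 markers, a sum chosen after the data were seen, r was 0.90 for Psmb8, 0.84 for Psmb10 and 0.71 for Psmb9. Within the first table the r with all 11 were 0.62, 0.56 and 0.64, and within the second 0.96, 0.90 and 0.89. For the constitutive core subunits the median r with the leukocyte sum was 0.11 and for the regulatory particle -0.24. Single members spread widely, from -0.33 to 0.63 in the core and from -0.54 to 0.53 in the regulatory particle. Of the catalytic subunits that are replaced, Psmb6 had 0.63, Psmb5 0.46 and Psmb7 -0.33. The activators Psme1 and Psme2 had 0.72 and 0.57. In the first table the leukocyte sum ran from 134 to 261 FPKM with vehicle and from 166 to 278 with D-alanine. In the second it ran from 164 to 449 and from 171 to 508, and none of the 11 was at 0 in all libraries. Their part in the spread of the immunoproteasome subunits was not tested. Psmb9 overlaps Tap1 on the opposite strand, and no source used here says whether strand was kept, so fragments of the pair cannot be told apart.

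D-alanine was compared with vehicle as the mean over the 6 times. A member was called where the Benjamini-Hochberg adjusted p of limma, taken over all 14922 genes past the filter, was under 0.05. One of 48 members was called, Psmc1, which was higher with D-alanine, and no member was called lower. Of all genes tested, 1.74% were called, 1.59% as higher and 0.147% as lower, so the share of members, 2.08%, lies near that of genes at large.

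Psmc1 encodes an ATPase of the ring that unfolds substrates and opens the gate of the core. In the first table its level ran from 47.8 to 65.0 FPKM with vehicle, at a median of 57.8, and from 55.8 to 70.9 with D-alanine, at a median of 61.0. In the second table it ran from 71.4 to 88.1 in vehicle with a median of 80.7, and from 83.7 to 95.1 in D-alanine with a median of 86.3. The treatments overlapped within each table, and the tables did not overlap. The group mean was higher with D-alanine in 11 of 12 pairs of time and table. The difference was 0.12 ± 0.03 on the log2(FPKM + 1) scale (limma, SE, adjusted p = 0.0346), 0.11 in the first table and 0.12 in the second. The call was lost, with an adjusted p of up to 0.620, under quantile normalization, under centring on the library median (0.05 log2), without the mitochondrially encoded genes, without a term for the table and in each table alone. It was also lost in 11 of 48 fits that left out 1 library, at most to an adjusted p of 0.0646 without vehicle CT4 replicate 3. After removal of group and table means, Psmc1 had an r of 0.52 with the summed endothelial markers over 48 libraries, and 3 of 3 endothelial markers had an unadjusted p under 0.05 for treatment, all higher. Their part in the difference was not tested.

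Regulatory particle and core subunits were set side by side against the median of all genes. All 17 regulatory particle subunits (ATPases, other base subunits and lid) were above 0, with a median difference of 0.07, and 12 had an unadjusted p under 0.05. Of the 14 constitutive core subunits 11 were above 0, the median was 0.01 and 0 had an unadjusted p under 0.05. The median of all genes tested was 0.06; 13 of 17 regulatory particle subunits and 0 of 14 core subunits lay above it. Against the all-gene median of each table alone the counts were 14 of 17 and 4 of 14 in the first, and 9 of 17 and 0 of 14 in the second. The difference between the particles was not tested. Directions against 0 depended on the scaling: with each library centred on its median, 9 of 17 regulatory particle and 0 of 14 core subunits were above 0, with medians of 0.00 and -0.06, and with quantile normalization 14 of 17 and 2 of 14 were. With rescaling to TPM, 17 of 17 and 14 of 14 were above 0. With 1 library left out the median ran from 0.06 to 0.08 for the regulatory particle and from 0.00 to 0.02 for the core.

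Over all 48 members the median difference was 0.05 and 41 were above 0, beside 76.3% of all genes above 0. Under quantile normalization 22 of 48 were above 0 and under median centring 16 of 48. An unadjusted p under 0.05 was reached by 15 members, all higher, which is 31.2% beside 20.5% of all genes. After Psmc1, the smallest adjusted p of limma were 0.0507 for Psmd13, a lid subunit (0.11 ± 0.03, higher in 12 of 12 pairs), and 0.0522 for Psmd2, the scaffold of the base (0.11 ± 0.03); neither passed. Psmd13 overlaps Sirt3 on the opposite strand. The lid subunit Psmd7 (0.12) and the ATPase Psmc6 (0.12) followed with adjusted p of 0.0587 and 0.0772.

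**Figure D2:**
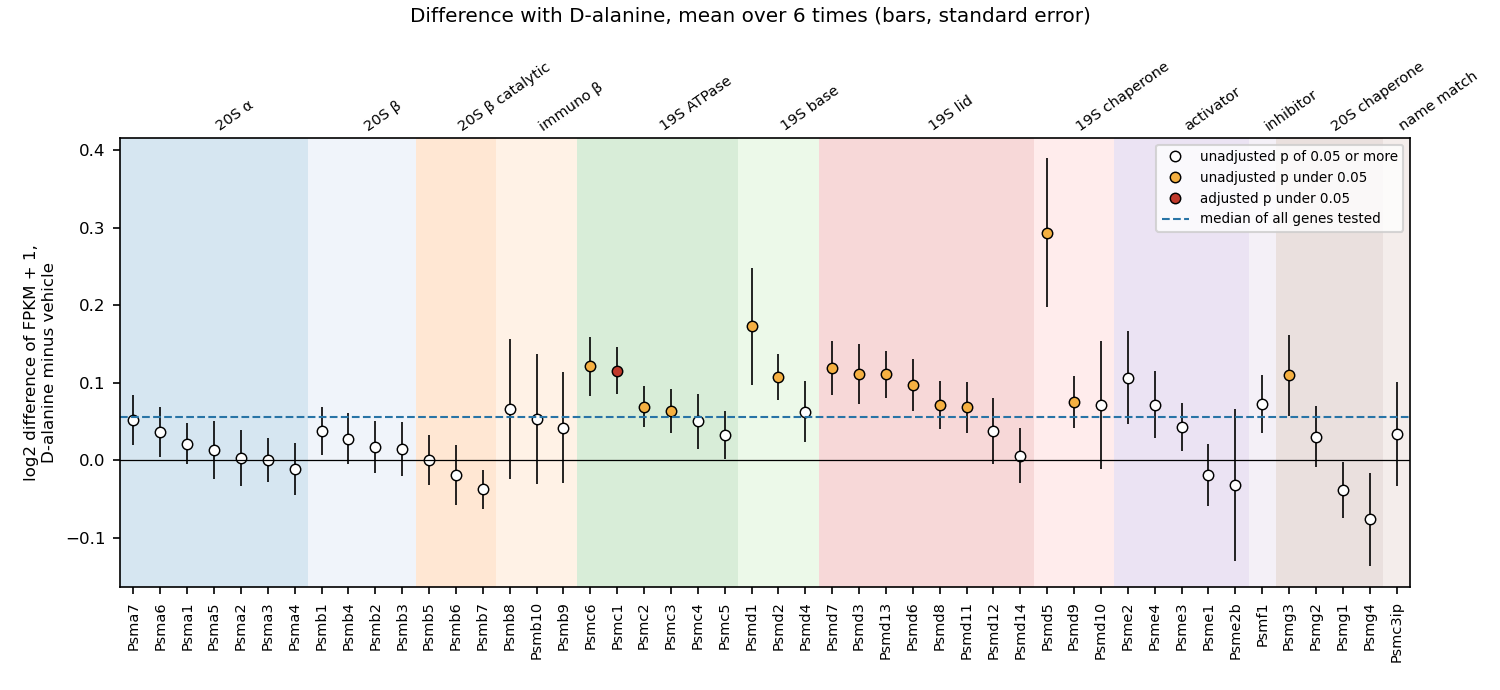
Log2 difference of FPKM + 1, D-alanine minus vehicle as the mean of 6 times, with SE bars, for 48 members by role; the dashed line is the median of all genes tested (0.06). Psmc1 is the red point, the one called member; regulatory particle subunits lie mostly on or above the line and core subunits below it.

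Among the other roles no member was called. The base chaperone Psmd5 had the widest difference, 0.29 ± 0.10, with a limma adjusted p of 0.0845. It had an r of 0.85 with the summed endothelial markers over 48 libraries, and 1 D-alanine library at CT0 held the highest value of both. Psmd10, another base chaperone, had an r of 0.82 and its highest value in the same library. Psmd9, the third base chaperone, which overlaps Hpd on the opposite strand, had an r of 0.10. The part of these markers in the difference was not tested. The activators ran from -0.03 for Psme2b to 0.11 for Psme2; Psme2b is a near-identical copy of Psme2, so how the authors split fragments between them is uncertain. Psme3, the nuclear activator, stood at 20.1 ± 3.4 FPKM with vehicle and 20.9 ± 4.5 with D-alanine, and Psme4, which caps the core without ubiquitin, at 12.3 ± 1.7 and 13.1 ± 2.3 (SD, n = 24 each). The inhibitor Psmf1 stood at 4.38 ± 0.53 and 4.66 ± 0.63. The SDs of Psme3, Psme4 and Psmf1 pool both tables and so include the difference between them. Within vehicle Psme3 stood at 17.2 ± 1.4 FPKM in the first table and 23.0 ± 1.9 in the second. The core assembly chaperones split, with Psmg3 at 0.11 ± 0.05 and Psmg4 at -0.08 ± 0.06.

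At single times, 0 of 48 members were called in any of the 6 comparisons, while 1.14% of all genes were called at CT0 (1.11% higher, 0.0268% lower) and 0% at each other time. Members with an unadjusted p under 0.05 numbered 8 at CT0, 1 at CT4, 7 at CT8, 2 at CT12, 11 at CT16 and 3 at CT20. At CT0 these were 16.7% of the members beside 22% of all genes, and at CT8 14.6% beside 14.8%, so neither count stood above genes at large. At CT4 they were 2.08% beside 2.55%, at CT12 4.17% beside 2.27% and at CT20 6.25% beside 2.57%. At CT16 these were 22.9% of the members beside 4.74% of all genes, all 11 were higher, and 9 of them were regulatory particle subunits; the smallest adjusted p of limma at that time was 0.991. Psmd6 and Psmd8, both lid subunits, had the smallest p there, with differences of 0.26 ± 0.08 and 0.22 ± 0.08. The median of the regulatory particle was 0.17 at CT16 and that of the core 0.08, beside 0.05 for all genes. At CT0, where the median of all genes was 0.12, the regulatory particle had 0.11 and the core -0.01. Psmd7 (0.28 ± 0.09, adjusted p = 0.0715 in limma) and Psmc1 (0.23 ± 0.07, 0.0773) came closest there. At CT8 the smallest adjusted p were those of Psmd5 (0.69 ± 0.23, 0.272) and Psmd13 (0.21 ± 0.08, 0.275). The remaining times had adjusted p of 1 for every member; their smallest unadjusted p belonged to Psme3 (-0.16 ± 0.08) and Psmd11 (-0.15 ± 0.08) at CT4, Psmd11 (-0.19 ± 0.08) and Psme2b (-0.49 ± 0.24) at CT12, and Psmd9 (0.25 ± 0.08) and Psmd11 (0.21 ± 0.08) at CT20.

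No member passed the test of treatment by time, and neither did any other gene (0%), with an unadjusted p under 0.05 in 3 members (6.25%, beside 3.53% of all genes). These were Psmd11, with the smallest p, Psme3 and Psma4, a core α subunit, all at a limma adjusted p of 0.965. The difference between treatments likewise passed in 0 of 48 members for treatment by table (0% of all genes; 0 members and 3.84% of all genes with an unadjusted p under 0.05). The nearest there were Psmg3 (0.19 ± 0.10) and Psmb3 (-0.12 ± 0.07).

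Daily rhythm was tested as a 24 h cosine averaged over both treatments. Of 48 members, 6 were called rhythmic, which is 12.5% beside 25.9% of all genes. With the times as a factor in place of the cosine 6 were also called over both treatments (20.5% of all genes), 2 in vehicle (5.17%) and 2 in D-alanine (9.7%). The members called with the cosine were Psmd11, Psma1, Psma3, Psmc6, Psmd7 and Psmg2, so 2 core α subunits, 2 lid subunits, 1 ATPase and 1 core assembly chaperone. Of the 6, 5 had fitted peaks between CT20.8 and CT23.2, late in the circadian night, and Psmg2 at CT7.43. The catalytic and structural β subunits, the activators and the inhibitor had no called member. The median amplitude of the members was 0.05, beside 0.10 for all genes. The members were also measured more precisely, with a median SE of the amplitude of 0.03 beside 0.04 and a median level of 26.3 FPKM beside 4.73.

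Psmd11 encodes a lid subunit that holds the core and the regulatory particle together. Over both treatments it ran at CT20 from 10.3 to 18.8 FPKM with a median of 15.1, and at CT0 from 10.9 to 17.8 with a median of 14.3. At CT8 it ran from 8.02 to 12.4 with a median of 10.8, and at CT12 from 7.88 to 12.7 with a median of 10.9. The late-night libraries were high and those of CT8 and CT12 low, with overlap when the tables are pooled. In the second table alone the lowest of 4 libraries at CT20 (14.9) stood above the highest at CT8 (12.4) and CT12 (12.7). In the first table CT20 (10.3 to 15.2) overlapped CT8 (8.02 to 10.8) and CT12 (7.88 to 10.6). The amplitude was 0.25 ± 0.03 with a peak at CT21.2 (limma adjusted p = 1.02e-08), a fitted ratio of peak to trough of 1.41 on the FPKM + 1 scale, and 7.84% of all genes had an amplitude at least as large. The rhythm was called in both tables alone, at CT20.8 (limma adjusted p = 0.0082) and CT21.6 (2.65e-05), in all 10 alternative fits and in all 48 fits with 1 library left out.

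Psmd11 was also rhythmic within each treatment. In vehicle its 4 libraries read 8.02, 8.30, 11.7 and 10.7 FPKM at CT8, and 10.3, 11.5, 17.5 and 14.9 at CT20. In D-alanine they read 7.88, 8.00, 11.2 and 11.9 at CT12, and 15.2, 13.03, 15.4 and 18.8 at CT20. The low point was CT8 in vehicle and CT12 in D-alanine, and in D-alanine CT12 and CT20 did not overlap. Amplitudes were 0.19 ± 0.04 in vehicle and 0.31 ± 0.04 in D-alanine, peaking at CT21.8 and CT20.9. The difference in rhythm did not pass (limma adjusted p = 1). By time, D-alanine minus vehicle was 0.14 at CT0, -0.15 at CT4, 0.18 at CT8, -0.19 at CT12, 0.22 at CT16 and 0.21 at CT20, each with an SE of 0.08.

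**Figure D3:**
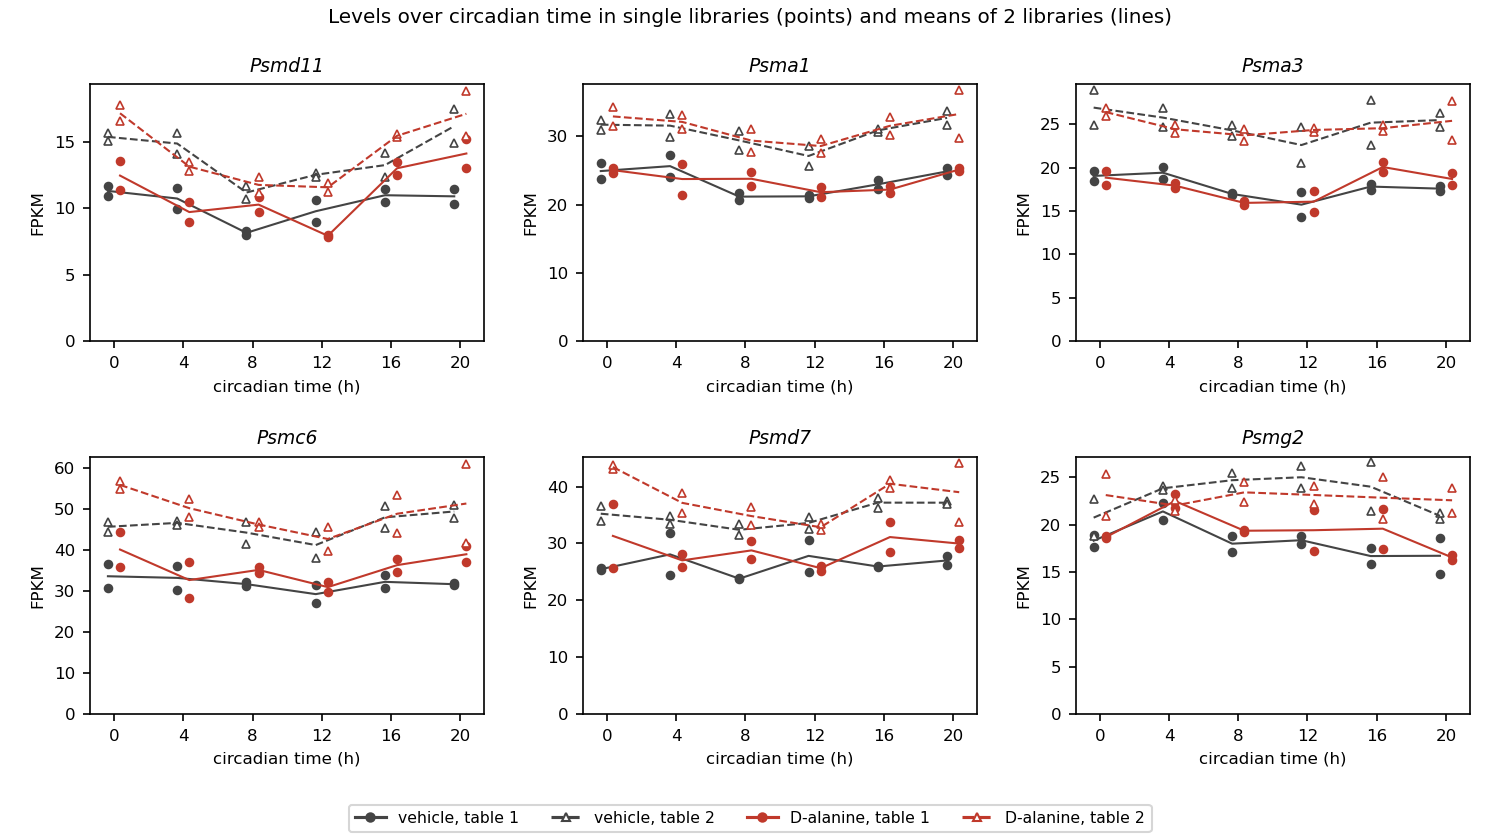
FPKM against circadian time for the 6 members called rhythmic, with every library as a point and the mean of 2 libraries per treatment and table as a line. Psmd11 falls to 7.88 to 12.7 FPKM at CT8 and CT12 and rises to 10.3 to 18.8 at CT20; the other 5 move less, and the second table lies above the first.

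The other called members had amplitudes near 0.1. Psma1, an α subunit, ran from 23.8 to 34.3 FPKM at CT0 with a median of 28.5, and from 21.0 to 29.6 at CT12 with a median of 24.1. Its amplitude was 0.11 ± 0.02 with a peak at CT23.2 (limma adjusted p = 6.67e-05). Psma3, also an α subunit, had medians of 22.3 at CT0 and 18.9 at CT12 and an amplitude of 0.09 ± 0.02 at CT22.7 (limma adjusted p = 0.0022). With the tables pooled these ranges overlapped between times. Within each table the 4 libraries at CT0 all stood above the 4 at CT12 for both genes: in the first table Psma1 ran from 23.8 to 26.1 against 21.0 to 22.5 and Psma3 from 18.04 to 19.7 against 14.3 to 17.3. In the second Psma1 ran from 31.0 to 34.3 against 25.6 to 29.6, and Psma3 from 24.9 to 28.9 against 20.5 to 24.7. The ATPase Psmc6 had medians of 44.4 at CT0 and 35.1 at CT12, with an amplitude of 0.11 ± 0.03 at CT22.6 (0.0068), and CT0 and CT12 overlapped in both tables. Psmd7, the lid partner of the deubiquitinase Psmd14, had medians of 35.2 at CT0 and 30.9 at CT8. Around its fitted peak of CT20.8 the medians were 35.1 at CT16 and 32.3 at CT20. The amplitude of Psmd7 was 0.09 ± 0.03 (limma adjusted p = 0.0253). Psmg2, a chaperone of α ring assembly, had its highest median at CT4 (22.4) and an amplitude of 0.08 ± 0.03 (0.0474). Its call held in 15 of 48 fits with 1 library left out, with a limma adjusted p of up to 0.0871 without vehicle CT20 replicate 2. In these fits the amplitude ran from 0.075 to 0.095 and the peak from CT6.97 to CT7.88, so the call lies close to the threshold. The calls of the other 5 held in all 48 such fits. In alternative fits Psma1 kept its call in 9 of 10, Psma3, Psmc6 and Psmd7 in 6 of 10 and Psmg2 in 5 of 10. With each table alone Psma1 was called in both (limma adjusted p = 0.036 in the first and 0.0253 in the second). Psma3 (0.0677 and 0.135), Psmc6 (0.211 and 0.0744) and Psmg2 (0.106 and 0.171) were called in neither. Psmd7 was called in the second only (0.61 and 0.0193).

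Within vehicle 3 of 48 members were called (6.25% beside 9.77% of all genes): Psma1, Psma3 and Psmd11. Within D-alanine 3 were called (6.25% beside 8.3% of all genes): Psma1, Psmc6 and Psmd11. The test of the difference in rhythm between treatments passed for 0 of 48 members and 0% of all genes, with an unadjusted p under 0.05 for 1 member (2.08%, beside 2.37% of all genes), Psma4. The next smallest p belonged to Psma7, another α subunit.

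**Figure D4:**
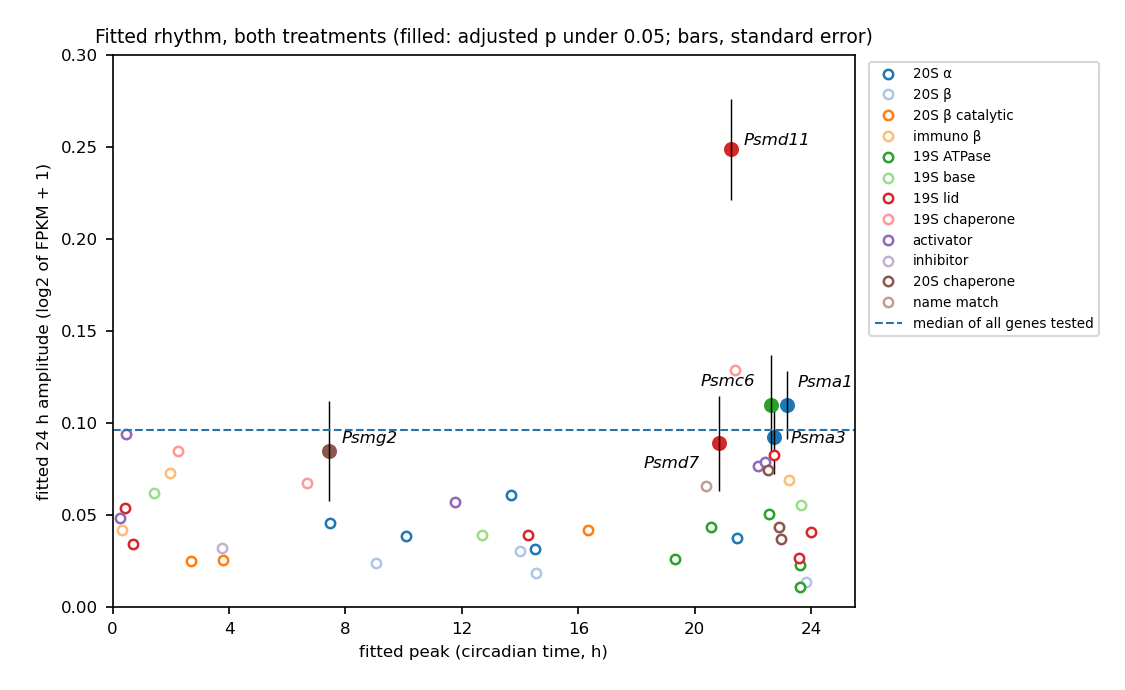
Fitted 24 h amplitude (log2 of FPKM + 1) against fitted peak time for 48 members, coloured by role; filled points have an adjusted p under 0.05 and carry SE bars, and the dashed line is the median amplitude of all genes tested (0.10). Psmd11 stands alone at 0.25, and 5 of the 6 called members peak between CT20.8 and CT23.2.

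Upstream sequence was read for the members with a promoter window in RefSeq (GRCm38.p6), which were 42 of the 50. The 250 bases before the start were searched on both strands for 6 motifs, and each share stands beside that of all genes in the table. TGACNNNGC, the core of the antioxidant response element that NRF1 and its relatives bind, was in 5 of 42 (11.9%, all genes 11.5%), in Psmb5, Psmb6, Psmc6, Psmd12 and Psmd9. CCAAT was in 15 (35.7%, all genes 37.5%). Of the clock elements, the E-box CACGTG was in 4 (9.52%, all genes 6.86%), the D-box TTATGNAA in 0 (3.63%), and AGGTCA, the core site of REV-ERB and ROR receptors, in 10 (23.8%, all genes 15.8%). The interferon response motif was in 3 (7.14%, all genes 3.46%). A match describes letters only and no match says only that the letters are not in this window. Windows of the called members that the table holds are given because these members carry the rhythm and treatment results, 5′ to 3′ on the gene's strand and ending 1 base before the start. Psmc6 is printed over all 250 bases searched and the other 4 over the last 180. Capitals mark every match to any of the 6 motifs: CCAAT at 2 places in Psma1 (once on the other strand), AGGTCA on the other strand and CCAAT in Psma3, TGACNNNGC on the other strand in Psmc6, CCAAT in Psmc1, and none in Psmd11. They are Psmd11 at chr11:80428435-80428614 (plus strand), Psma1 at chr7:114276117-114276296 (minus), Psma3 at chr12:70974443-70974622 (plus), Psmc6 at chr14:45329574-45329823 (plus) and Psmc1 at chr12:100110022-100110201 (plus).
Psmd11: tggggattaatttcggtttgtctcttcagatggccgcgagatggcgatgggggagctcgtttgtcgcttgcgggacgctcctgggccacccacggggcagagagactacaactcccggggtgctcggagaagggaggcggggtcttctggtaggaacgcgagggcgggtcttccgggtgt
Psma1: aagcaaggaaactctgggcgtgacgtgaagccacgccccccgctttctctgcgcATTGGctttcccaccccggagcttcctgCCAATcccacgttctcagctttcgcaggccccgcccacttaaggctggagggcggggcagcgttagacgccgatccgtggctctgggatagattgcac
Psma3: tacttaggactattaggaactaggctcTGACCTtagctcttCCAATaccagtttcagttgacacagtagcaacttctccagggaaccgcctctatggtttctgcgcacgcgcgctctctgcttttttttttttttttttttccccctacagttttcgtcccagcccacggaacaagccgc
Psmc6: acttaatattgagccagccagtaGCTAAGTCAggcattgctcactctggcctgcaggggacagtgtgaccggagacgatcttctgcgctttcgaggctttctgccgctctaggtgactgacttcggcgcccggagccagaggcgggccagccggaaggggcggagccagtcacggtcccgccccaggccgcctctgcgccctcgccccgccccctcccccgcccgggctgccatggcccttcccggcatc
Psmc1: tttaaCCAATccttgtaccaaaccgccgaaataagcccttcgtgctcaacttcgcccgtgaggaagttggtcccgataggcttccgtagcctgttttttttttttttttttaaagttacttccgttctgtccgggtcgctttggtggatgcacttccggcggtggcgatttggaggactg

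The 2 tables were compared as well. Of 48 members 41 were called higher in the second table and 0 lower, beside 64% of all genes called, 41% as higher and 23% as lower. The median difference was 0.37 for the members and 0.07 for all genes. It reached 0.73 ± 0.04 in Psma5 and 0.69 ± 0.03 in Psmb7, both core subunits. The immunoproteasome subunits had a median of 0.00 and none of 3 was called; Psmd4, a ubiquitin receptor of the base, Psmd5, Psme2 and Psmc3ip were not called either. The size and the direction depended on the scaling. Without the mitochondrially encoded genes 25 members were called higher and 8 lower, with a median of 0.09 beside -0.15 for all genes. With quantile normalization 30 were higher and 4 lower, with a median of 0.15 beside 0.01 for all genes. The shares of all genes called under these scalings are not given here. These alternatives were chosen after the data were seen. The mitochondrial share, given above, moves with the table, and whether the tables are the 2 runs of the experiment is an inference. Every treatment group has 2 libraries in each table, so the treatment comparisons are balanced over them.

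**Figure D5:**
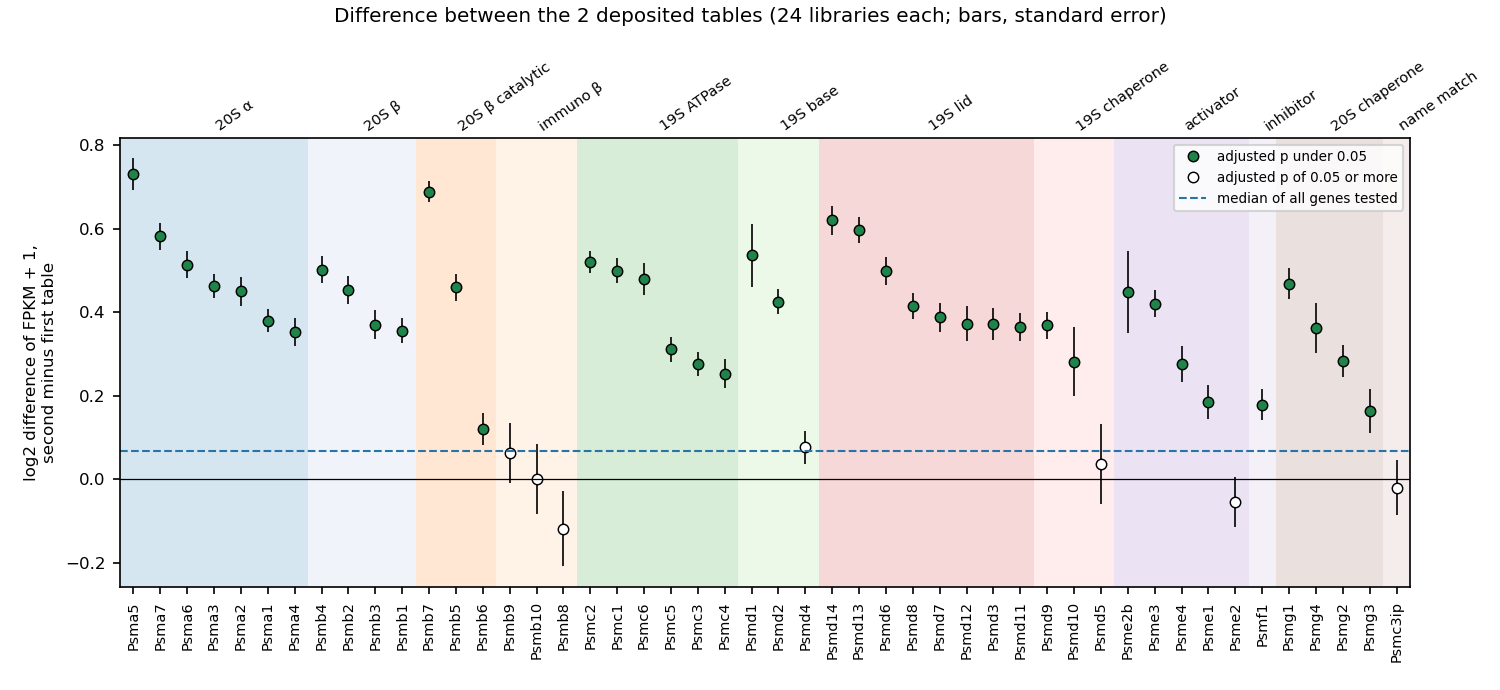
Log2 difference of FPKM + 1, second minus first table, with SE bars, for 48 members by role; the dashed line is the median of all genes tested (0.07). All roles except the immunoproteasome and the name match hold called members, with differences up to 0.73.

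Other genes of the pathway were taken from lists. Of 22 measured partners and regulators of the proteasome, 1 was called higher with D-alanine over the 6 times and 0 lower, beside the 1.74% of all genes. An unadjusted p under 0.05 was found in 12 of the 22, a larger share than the 20.5% of all genes. The called gene was Ubqln1, a shuttle that carries ubiquitinated proteins to the proteasome, at 28.0 ± 6.0 FPKM with vehicle and 31.1 ± 7.3 with D-alanine (SD, n = 24 each). Its difference was 0.14 ± 0.03 (limma adjusted p = 0.0285). At CT0 Ubqln1 (0.36 ± 0.08, adjusted p = 0.0399 in limma) and Zfand2a, a stress-inducible partner of the regulatory particle (0.57 ± 0.12, 0.0303), were called higher. Nfe2l1, at 22.3 ± 3.7 and 26.0 ± 7.6 FPKM, was not called (0.18 ± 0.08, adjusted p = 0.183). Uba1, the main ubiquitin-activating enzyme, was called higher, at 30.2 ± 3.7 FPKM with vehicle and 33.2 ± 3.7 with D-alanine (0.13 ± 0.03, limma adjusted p = 0.0342). The SDs of FPKM given for Ubqln1, Nfe2l1 and Uba1 pool both tables and so include the difference between them. Of 12 genes of antigen presentation and interferon 0 were called.

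Rhythm was called in 8 of 22 partners and regulators and 5 of 12 antigen presentation genes, beside 25.9% of all genes. Ubqln1 had an amplitude of 0.26 ± 0.03 with a peak at CT22.6 (limma adjusted p = 2.56e-09), close to that of Psmd11 in size. Ddi2, the protease that activates NRF1, had 0.16 ± 0.03 at CT19.8 (limma adjusted p = 0.00036). Calr, a chaperone of the endoplasmic reticulum that loads peptide receptors, had 0.26 ± 0.04 at CT22.3 (1.11e-05). Psmb8, Psmb9 and Psmb10, which serve the same presentation pathway, were not called.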

How the data were processed

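Kidney RNA of 48 libraries was extracted with a column kit and SMARTER kit libraries were made from it, per the labels' protocols. The authors deposited FPKM values, 1 column per library in 2 tables; the submitters' processing notes name the build GRCm38 (mm10), while aligner, counter, strand setting and filters were not given in the sources used here. Groups came from the treatment and time labels. Depth was recovered from FPKM steps with GENCODE M21 exon lengths (in single-transcript genes 97.0% to 97.6% of values below 20 fragments were whole within 0.05).

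The scale was log2(FPKM + 1) and the test limma 3.58.1 (R 4.3.3; empirical Bayes with trend; 12 groups plus table). The pseudocount understates changes of low genes. Genes with at least 1 FPKM in at least 4 libraries were tested (14922). Rhythm used a 24 h cosine and sine per treatment. Tests were two-sided, with Benjamini-Hochberg adjustment at 0.05 over all genes, and were tested on simulated data. Alternatives were a pseudocount of 0.1, no filter, TPM, quantile, median and non-mitochondrial scaling, no table term, each table alone, robust moderation, times as a factor, voom on recovered fragments and each library left out. The members and the lists were chosen with earlier results of these data known. Members past the threshold with the smallest p were named, or the 2 with the smallest p where none passed, together with the immunoproteasome pairs, activators, inhibitor, tissue-restricted members and Psmd11. Cell type marker lists were used as measures only. Counts over the ubiquitin supply list are not reported here.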

Additional observations from a re-analysis of the deposited data

Results flagged for a closer look

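Over the 36 groups of Psmd11, Psmc1 and Psmb8, a library far from the other 3 of its group was found 1 time. Each group held 2 libraries from each table, and the values were not adjusted for table. Psmc1 ran up to 70.9 FPKM in the first table and from 71.4 in the second, so its groups split by table. The mean of Psmd11 was 10.8 FPKM in the first table and 14.1 in the second. The chance rate of about 1 in 20 groups therefore does not apply to the 36 groups, and no conclusion is drawn from the count. Psmb8 in vehicle at CT20 read 3.98 FPKM in replicate 3 and 5.76 to 6.05 in the others.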

How the results depend on the processing

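The count of members called for treatment over the 6 times was 1 in the reported fit and 18 with TPM scaling. All 18 were higher, 13 of them regulatory particle and 2 constitutive core subunits. TPM scaling also moved the median difference of all genes, from 0.056 to 0.106, beside 0.103 for the members. The count was 0 with quantile normalization, median centring, scaling without mitochondrially encoded genes, no table term and each table alone. With 1 library left out it ran from 0 to 5. Calls at single times, 0 as reported, were 7 with TPM scaling, all at CT0, and 0 to 1 with 1 library left out. Rhythm over both treatments, 6 as reported, gave 1 without the table term and 3 in each table alone, and 5 to 9 with 1 library left out. In vehicle, 3 as reported, the count was 1 with median centring, 0 without the table term, 0 in the first table and 1 in the second, and 2 to 4 with 1 library left out. In D-alanine, 3 as reported, it was 1 with quantile normalization, median centring, scaling without mitochondrially encoded genes, no table term and each table alone, and 1 to 6 with 1 library left out. The median difference of the members, 0.05, was -0.0228 with median centring and 0.04 to 0.06 with 1 library left out. The cause of these shifts was not tested, and each table alone also holds fewer samples. The share of all genes called under each alternative is not given here. These counts are therefore not set against genes at large. Treatment by time, treatment by table and the rhythm difference gave 0 calls in every alternative. No paired analysis was possible because replicate numbers follow the order of the samples. Depth is one number per library, and precision is poorest for the low members.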

Other observations

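Psmd5 and Psmd10, both base chaperones, moved with endothelial markers. The level of Psmd5 ran from 3.62 to 16.9 FPKM with a median of 5.59, and the highest value was in D-alanine CT0 replicate 2, the next being 10.4. The summed endothelial markers (Pecam1, Emcn and Kdr) were also highest in that library, at 119 FPKM, the next being 60.2. After removal of group and table means r was 0.85 over 48 libraries, and 0.81 without that library. Psmd10 was highest in the same library, at 26.3 FPKM with the next at 18.7, and its r was 0.82, and 0.77 without that library. Without it the treatment difference of Psmd5 was 0.24 (limma adjusted p = 0.127, with Benjamini-Hochberg adjustment). Psmd5 overlaps Cutal on the opposite strand, and its r with Cutal was -0.05. Psmd9, the third base chaperone, which overlaps Hpd on the opposite strand, had an r of 0.10 with the endothelial sum. With the summed proximal tubule markers r was -0.53 for Psmd5 and -0.57 for Psmd10, and with the summed fat markers 0.35 and 0.36. The part of endothelial or other RNA in the values of Psmd5 and Psmd10 was not tested.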
